A study of Mus musculus with 4 samples.

Results

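Mouse gene arrays carry probes for many small nucleolar RNAs (snoRNAs) to which the array file assigns no gene symbol. These transcript clusters are described here in wild-type and Adar2 knockout brains. Members were the clusters whose description in the array file names a snoRNA and whose gene symbol is empty, leaving out a stretch of chromosome 7 and a stretch of chromosome 12 that hold 34 further such clusters. This rule gave 1144 of the 33793 transcript clusters of the table, a transcript cluster being the probes that together read 1 transcribed locus. The rule itself uses no measured value.

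The data came from whole brains of female mice of the 129SV strain, dissected at the age of 5.5 months. There were 2 wild-type arrays and 2 arrays of Adar2 knockout mice, which carry a constitutive deletion and so lack the enzyme in every cell. ADAR2, the product of Adarb1, is an RNA editing enzyme that deaminates adenosines in double-stranded RNA to inosines. All 4 samples, the wild type included, carried the pre-edited Gria2 R/R allele that rescues the early death of Adar2 knockout mice, and both genotypes were siblings from crosses of heterozygous parents. The study describes its replicates in general as independent biological ones, while the labels number the arrays without naming the animals. Every p-value measures the spread between these samples only.

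snoRNAs are short, stable RNAs of the nucleolus that mostly guide the chemical modification of ribosomal RNA. C/D box snoRNAs direct 2′-O-methylation with the methyltransferase fibrillarin, and H/ACA box snoRNAs direct pseudouridylation with dyskerin. Related guides of the Cajal body, the scaRNAs, act on spliceosomal RNAs. Most vertebrate snoRNAs lie in introns and are trimmed out of the spliced intron, so their level depends both on the host transcript and on the stability of the snoRNA with its proteins.

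For 1140 of the 1144 members the file gives only an Ensembl description as snoRNA, with no box class. The other 4 carry a GenBank description, of which 1 names the H/ACA class and 1 the C/D class. Members spanned 50 to 343 bases with a median of 130, and each was read by 7 to 25 probes with a median of 12. They lay on 20 chromosomes, with 23 to 88 on each. The span of 734 members was identical to that of a small-RNA gene in RefSeq (GRCm38.p6), which gave them the names used below. In all, 788 overlapped such a gene, 757 of them a snoRNA and 30 a guide RNA, and 356 overlapped none. The file flags 574 members (50.2%) as type 3, meaning that their probes can cross-hybridize to other loci, against 14.7% of all clusters. The signal of a type 3 cluster can therefore come from near-identical copies elsewhere, and 42 members shared all 4 array values with another member. Positions follow the array file, in which no genome build is named.

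Sequence at hand covered only a few members, and the following stretches are shown because they hold letters like the boxes by which each class is known. The file gives no box class for either member. The member cluster 17225171 lies in Ncl, the gene of nucleolin, and coincides with the hairpin of a miRNA of the RefSeq table, so that the mature miRNA starts at the first base of the snoRNA. The first line gives that mature sequence (GRCm38.p6, chr1:86352062-86352087, minus strand) with letters of the C box motif in capitals. The second gives the 3′ end of the same member (chr1:86352008-86352037, minus strand) with letters of the D box motif in capitals. The third gives the 3′ end of LOC115486330 (chr6:125258049-125258078, minus strand) with the letters ACA in capitals, 3 bases from the end.
mmu-miR-3535: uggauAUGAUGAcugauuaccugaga
cluster 17225171, 3′ end: auuccucuagauagucaaguuCUGAuccag
LOC115486330, 3′ end: ggattgccctaagagaccttggagACAgtt

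The letters AUGAUGA occurred in 3 of the 1738 mature miRNAs of the table (0.173%), and in 2 on the opposite strand. CUGA, searched as CTGA, was present in 13.0% of 30-base stretches taken from RefSeq gene starts and in 13.7% on the opposite strand, and ACA at that distance from the end in 1.54% and 1.55%. A match describes these letters only. The member in Ncl read 3.02 and 3.43 (log2 signal) in wild type and 3.54 and 3.05 in knockout. The groups overlapped and the difference was 0.07 (SE 0.21), with an unadjusted limma P-value of 0.754. LOC115486330 read 5.71 and 5.45 in wild type and 5.79 and 5.99 in knockout. Here both knockout arrays lay above both wild-type arrays, with a difference of 0.31 (SE 0.14) and an unadjusted limma P-value of 0.0695.

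The targeted gene followed the labels. Adarb1 read 10.50 and 10.45 in wild type and 9.16 and 8.96 in knockout, a fall of 2.67-fold (log2 change -1.42, SE 0.12). Brain markers were high on all arrays, with the mean of 3 neuronal genes between 12 and 12.09. The mean of 3 oligodendrocyte genes was 11.20 and 11.26 in wild type and 11.12 and 11.08 in knockout, with 1 called lower. The mean of 3 blood clusters was 7.67 and 7.65 in wild type and 7.0 and 8.01 in knockout, also with 1 called lower, where 2.31% of all clusters were. Markers of neighbouring tissue differed. The mean over 6 clusters of 5 pituitary hormone genes was 5.22 and 4.79 in wild type and 6.62 and 6.18 in knockout, with 3 clusters called higher, where 3.64% of all clusters were, and 1 at background on every array. The mean over 5 salivary gland genes was 4.88 and 4.78 in wild type and 7.08 and 4.84 in knockout, with 1 at background on every array. The part of such tissue in the values below was not tested.

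Many members were close to or under the detection limit of the arrays. The 4 Y-linked genes Kdm5d, Uty, Ddx3y and Eif2s3y, which have no source in female mice, read 3.49 to 4.40, and 4.40 was taken as the upper edge of background. All 4 values were at or under it for 589 members and above it for 456, while 99 had values on both sides. The median member read 4.01 and 4.09 in wild type and 4.12 and 4.14 in knockout, whereas the median of all clusters lay between 6.03 and 6.09. About as many members passed the background edge on each array, with 499 and 493 in wild type and 514 and 513 in knockout.

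Unnamed snoRNA clusters tended to read higher in the knockout brain, by small amounts. Of the 1144 members, 751 had a higher mean in knockout and 378 a lower mean, and the median log2 change was 0.075 against 0.005 over all clusters. At an unadjusted limma P-value below 0.05, 127 members (11.1%) were higher, where 3.64% of all clusters were, and 25 (2.19%) were lower, where 2.31% of all clusters were. No member passed an adjusted P-value of 0.05 in limma, nor did any of the 33793 clusters (0.0%), and the lowest adjusted value of a member was 0.409. In whole tissue, a change in the number of cells of a type and a change in RNA per cell cannot be told apart.

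Both knockout arrays exceeded both wild-type arrays in 309 members (27.0%), where 17.7% of all clusters showed this, and the reverse held in 92 (8.04%), where 16.5% of all clusters showed it. With each array centred on its median, the shares without overlap were 21.2% higher and 11.7% lower for members and 12.6% and 23.5% for all clusters. An exact permutation test of 2 arrays against 2 cannot give a two-sided p below 0.333, so limma with its shared variance estimate carried every test. The count of 127 depended on that shared estimate and on single arrays. A pooled-variance test without it called 40 members higher (3.50%, against 2.87% of all clusters). Where an array was left out, its genotype kept a single array, which was assumed to vary like those of the other genotype. Leaving out wild type 1 gave 68 (5.94%, against 2.14% of all clusters) and leaving out knockout 1 gave 78 (6.82%, against 3.12%).

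The share of higher calls stood further above that of all clusters among members above background. Of the 640 members with a mean at or under 4.40, 46 (7.19%) were called higher, against 4.93% of all clusters at that level, and their median change of 0.04 was close to the 0.035 of all such clusters. Lower calls there numbered 18 (2.81%), against 2.47%. Between 4.40 and 6, 51 of 291 members (17.5%) were called higher, against 5.94% of all clusters, with a median change of 0.12 against 0.05. Of these 51 calls, 18 were copies of a repeat on chromosome X described below, without which the count was 33 of 271 (12.2%). In the same band 5 (1.72%) were called lower, against 2.18%. Between 6 and 8, the count was 20 of 159 (12.6%) against 2.63%, with a median change of 0.16 where that of all clusters was 0, and 2 (1.26%) were called lower, against 2.48%.

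Above a mean of 8, 10 of 54 members (18.5%) were called higher and 0 lower, against 1.0% and 2.11% of all clusters. Their median change was 0.21 against -0.04 for all clusters of that level. It was seen against wild type 1 only. Among these 54 members the median of knockout 1 minus wild type 1 was 0.49 and that of knockout 2 minus wild type 1 was 0.40, whereas against wild type 2 the medians were -0.03 and -0.06. The 2 wild-type arrays differed among themselves by a median of 0.38, which the 2 knockout arrays did not (-0.09). The members between 6 and 8 did not show such a split, with medians of 0.18 against wild type 1 and 0.14 against wild type 2 for either knockout array.

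**Figure D1:**
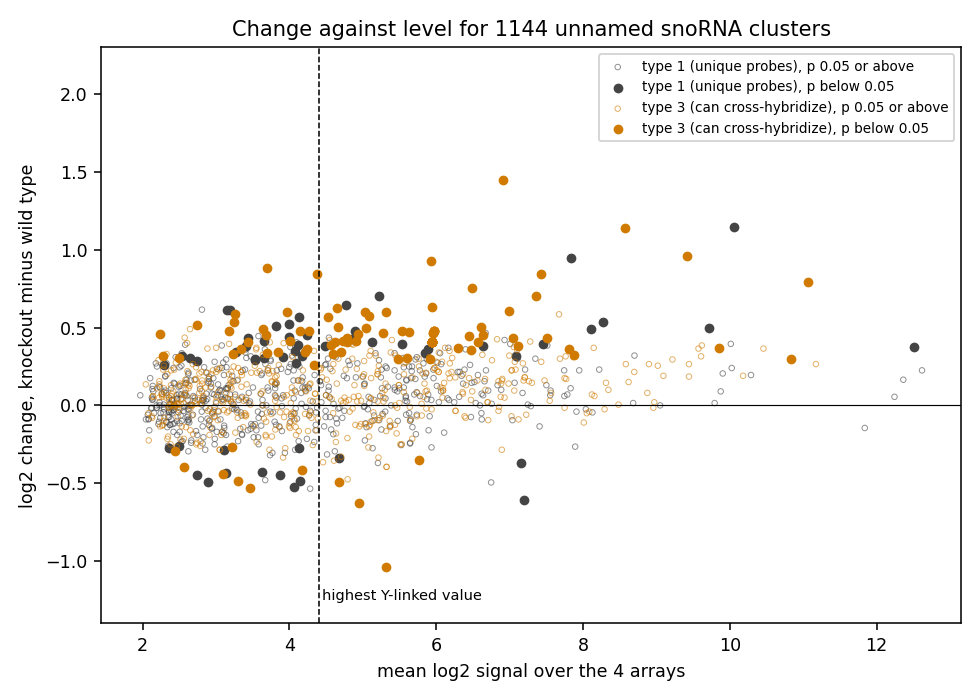
Each point is 1 of the 1144 unnamed snoRNA clusters, with the mean log2 signal over the 4 arrays on the x axis and the knockout-minus-wild-type log2 change on the y axis. Filled points passed an unadjusted limma P-value of 0.05, 127 higher and 25 lower. Orange marks type 3 clusters, whose probes can cross-hybridize, and the dashed line marks the highest Y-linked value of 4.40.

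**Figure D2:**
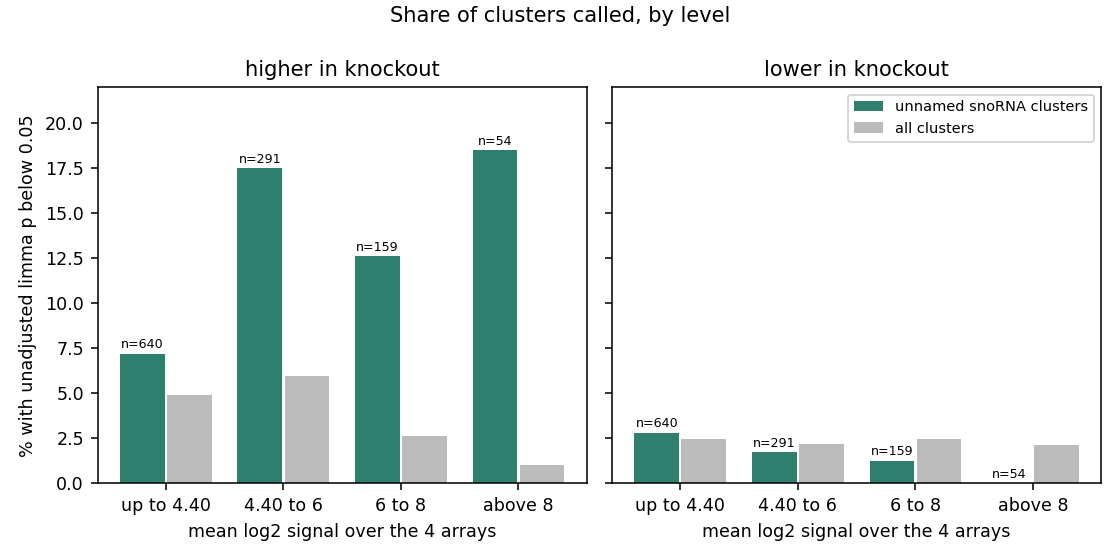
Bars give the percentage of clusters with an unadjusted limma P-value below 0.05, higher in knockout on the left and lower on the right, by mean log2 signal. Green bars are the unnamed snoRNA clusters, with their number above each bar, and grey bars are all clusters of that level. Higher calls among the snoRNA clusters run from 7.19% in the lowest band to 18.5% in the highest, and lower calls stay at or under 2.81%. In the band from 4.40 to 6, 18 of the 51 higher calls are copies of the X-linked repeat.

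Probe uniqueness gave a further split of the members. Among the 574 type 3 members, 86 (15%) were called higher, against 6.84% of all type 3 clusters (67 of 552, 12.1%, without the X-linked repeat), and 11 (1.92%) lower, against 2.56%. Among the 570 type 1 members, 41 (7.19%) were called higher, against 3.09% of all type 1 clusters, and 14 (2.46%) lower, against 2.26%. Median changes were 0.11 for type 3 and 0.05 for type 1 members, and 0.035 and 0 for all clusters of the same types. Type 3 clusters were thus called higher more often in the whole table too. By level, 8.13% of type 3 and 6.44% of type 1 members were called higher at or under 4.40. Up to 6 the shares were 25.6% (repeat copies included) and 7.09%, and up to 8 they were 17.0% and 6.15%. Above 8 the order turned, with 5 of 33 (15.2%) and 5 of 21 (23.8%). All clusters of these levels had 4.93%, 5.94%, 2.63% and 1.0%. The median level was 4.48 for type 3 and 3.79 for type 1 members, and the difference between types was not tested.

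The members were also split by span, host and annotation. Members of 100 bases or fewer, the usual length of C/D box snoRNAs, were called higher in 27 of 163 cases (16.6%), and longer members in 100 of 981 (10.2%). Of those 27 calls 19 were copies of the X-linked repeat, and without it the shorter members had 8 of 141 (5.67%), fewer than the longer ones. Over all clusters the share called higher was 3.64%. The share was 12.5% for the 232 members inside a symbol-bearing cluster on the same strand and 10.7% for the 912 outside one, or 8.88% of 890 without the repeat. Members that overlapped a RefSeq small RNA had 87 higher calls among 788, and those that overlapped none had 40 among 356, 11.0% and 11.2%. Without the repeat, whose copies overlap no RefSeq small RNA, the latter had 21 among 334 (6.29%). Of the 30 members in RefSeq guide RNAs, the class that holds scaRNAs, 3 (10%) were called higher and 0 lower, with a median change of 0.13.

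The rises of at least 2-fold were found at members lying within genes that were not called themselves, as 94.1% of all clusters were not. Gm25617 (chr16:38158008-38158139, plus strand), an H/ACA box snoRNA by its GenBank description, lies within Gsk3b, the gene of the kinase GSK3 beta. It read 6.18 and 6.2 in wild type and 7.77 and 7.51 in knockout. The arrays of each genotype lay close together and the groups were far apart. The change was 2.73-fold (log2 1.45, SE 0.13), with an unadjusted limma P-value of 3.39e-05 and an adjusted value of 0.409. Gsk3b itself changed by -0.11 (P-value 0.408). Gm25617 is of type 3, so that copies elsewhere could add to its signal.

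Gm23297 (chr7:143531394-143531520, minus strand) lies within Nap1l4, which encodes a histone chaperone, and is of type 1. Its values were 9.30 and 9.66 in wild type and 11.06 and 10.19 in knockout. Both knockout arrays were higher, but they differed from each other by more than the wild-type arrays did. The rise was 2.21-fold, with a limma P-value of 0.00866 before adjustment, and Nap1l4 changed by -0.10 (P-value 0.454). Gm26175 (chr6:97162817-97162947, minus strand), a type 3 cluster within Tmf1, the gene of a Golgi protein, read 7.95 and 8.05 in wild type and 9.41 and 8.87 in knockout. Its groups did not overlap, and it rose 2.20-fold (P-value 0.0011) beside a change of 0.035 in Tmf1. These 3 members were the only ones with a rise of at least 2-fold and an unadjusted limma P-value below 0.05, a combination met by 0.0473% of all clusters. The number of members past 2-fold in either direction, 4 with the fall below, was 2 without knockout 1 and 9 without knockout 2. With single arrays left out, the log2 change of Gm23297 ran from 0.71 without knockout 1 to 1.58 without knockout 2. It was 0.96 without wild type 1 (limma P-value 0.139) and 1.32 without wild type 2 (limma P-value 0.0731), both without a call.

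Gm25820 (chr3:88693930-88694057, plus strand) within 2810403A07Rik read 8.94 and 8.93 in wild type and 10.12 and 9.67 in knockout. Its wild-type arrays were almost equal and both knockout arrays higher, by 1.95-fold (limma P-value 0.00133 before adjustment). Gm26225 (chr14:64753918-64754052, plus strand) within Kif13b, a kinesin motor gene, read 6.91 and 7.10 against 8.09 and 7.61, a rise of 1.80-fold without overlap. LOC115485642 (chr8:13876097-13876226, plus strand) within the zinc finger gene Zfp828 read 10.50 and 10.83 in wild type and 11.65 and 11.26 in knockout, 1.73-fold higher. All 3 are type 3 clusters, and their hosts changed by -0.09, -0.02 and -0.05. Without knockout 1 the log2 changes of Gm25820, Gm26225 and LOC115485642 were 0.735, 0.605 and 0.595. Without knockout 2 they were 1.185, 1.085 and 0.985.

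Gm23344 (chr9:64175048-64175115, plus strand) is one of 4 members within Rpl4, which encodes a protein of the large ribosomal subunit. It spans 68 bases, is of type 1, and read 7.66 and 7.07 in wild type and 8.44 and 8.18 in knockout. The groups were separate, with a rise of 1.93-fold (log2 0.94, SE 0.21, unadjusted limma P-value 0.00495). That log2 change ran from 0.65 without wild type 2 to 1.24 without wild type 1. The other members of the same host did not rise with it. Gm22571 changed by -0.08 and Gm23136 by -0.10, with overlapping groups, and LOC115487261, at 6.15 and 5.99 in wild type and 5.82 and 5.78 in knockout, changed by -0.27 (P-value 0.0537). Rpl4 itself read 11.55 and 11.26 against 11.54 and 11.49.

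The other 5 of the 12 largest rises lay outside any symbol-bearing cluster of their strand, and all 5 were type 3. The last place was tied on the log2 change of 0.70 and Gm25653 was taken. The other, cluster 17385363 (chr2:53700847-53700955, minus strand), is of type 1 and read 4.94 and 4.8 in wild type and 6.01 and 5.13 in knockout (unadjusted limma P-value 0.0482). Gm25274 (chr13:8945045-8945179, plus strand) read 5.5 and 5.43 in wild type and 6.59 and 6.19 in knockout, and cluster 17260666 (chr11:11913621-11913747, minus strand) read 6.14 and 6.09 against 6.94 and 6.80. In both, the gap between genotypes exceeded the gap within either. Their rises were 1.90-fold and 1.69-fold, with unadjusted limma P-values of 0.00117 and 0.000543. Gm25653 (chr4:72906201-72906338, minus strand) read 7.10 and 6.92 against 7.98 and 7.44 and rose 1.62-fold. Its log2 change of 0.70 was 0.43 without knockout 1 and 0.97 without knockout 2. Gm25497 (chr12:41348441-41348572, minus strand), at 4.06 and 3.84 in wild type and 5.13 and 4.46 in knockout, started from background. Cluster 17394383 (chr2:165270046-165270176, minus strand), at 3.16 and 3.36 against 3.94 and 4.34, was at background on all 4 arrays.

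Falls were fewer and smaller. Gm22937 (chr10:71898036-71898166, plus strand) read 5.38 and 6.29 in wild type and 5.09 and 4.50 in knockout. Both knockout arrays were lower, but the wild-type arrays differed from each other by more than the nearest values of the groups did. The fall was 2.06-fold (log2 -1.04, SE 0.33, unadjusted limma P-value 0.0218), and this was the only member past 2-fold in that direction, which 0.0207% of all clusters were. With single arrays left out the log2 change ran from -0.58 without wild type 2 (P-value 0.178 in limma) to -1.50 without wild type 1 (P-value 0.0234). It was -1.33 without knockout 1 (P-value 0.073) and -0.74 without knockout 2 (P-value 0.223). Gm25852 (chr6:97547438-97547567, minus strand), a type 1 cluster within Frmd4b, read 7.37 and 7.62 against 6.90 and 6.87. It had the smallest P-value of the 6 named falls (0.00305), with a fall of 1.53-fold beside a change of -0.20 in its host (P-value 0.232).

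Cluster 17461076 (chr6:93509573-93509702, plus strand) read 5.37 and 5.16 in wild type and 4.89 and 4.39 in knockout, a fall of 1.54-fold that reached background in knockout 2. Its log2 change of -0.625 was -0.375 without knockout 2 and -0.875 without knockout 1. The other 3 named falls lay at or near background. Gm24373 (chr3:157210929-157211060, plus strand), within the cell adhesion gene Negr1, read 3.92 and 3.54 against 3.39 and 3.01. Gm22762 (chr11:90782413-90782549, minus strand) read 4.52 and 4.12 against 3.64 and 3.95, and cluster 17228284 (chr1:154080095-154080199, minus strand) 3.02 and 3.24 against 2.76 and 2.52. Adjusted limma P-values of the 17 named members other than Gm25617 ran from 0.829 to 0.834.

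**Figure D3:**
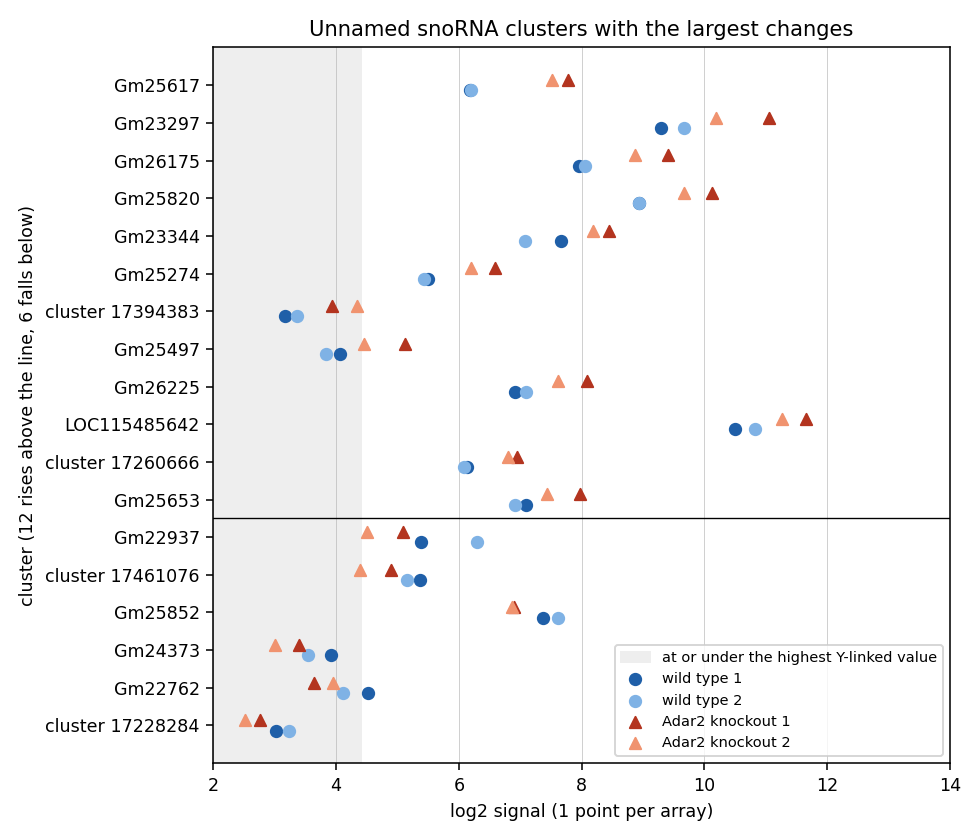
Log2 signals of the 12 members with the largest rise and the 6 with the largest fall, 1 point per array, blue circles for wild type and red triangles for Adar2 knockout. Grey marks levels at or under the highest Y-linked value of 4.40. The 2 knockout points lie to the right of both wild-type points in every rise and to the left in every fall, as the rule of choice required, and 4 of the 18 clusters have both wild-type points in the grey range.

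For 229 members a single symbol-bearing cluster enclosed the snoRNA on the same strand, in 209 distinct hosts with a median change of -0.02. Of the 29 members called higher inside a host, 27 (93.1%) had a host with no call, about the 94.1% of all clusters that had none, with a median change of 0.46 for the snoRNA and -0.01 for the host. The host of Gm26202, Rpl17, also encoding a ribosomal protein, was the only one of the 29 that was called higher. Gm26202 read 6.43 and 6.94 in wild type and 7.47 and 7.11 in knockout (log2 change 0.61, limma P-value 0.0288), beside Rpl17 at 5.09 and 5.02 against 6.26 and 5.80 (0.97, P-value 0.00137). Its neighbour in the same host, Gm23301, read 8.26 and 8.35 against 8.37 and 8.19, with overlapping groups and a change of -0.03.

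Gm24061 moved against its host. It read 3.98 and 4.05 in wild type and 4.50 and 4.44 in knockout (0.46, limma P-value 0.00518), from background, while the sorting nexin gene Snx12 read 8.88 and 8.66 against 8.34 and 8.41 (-0.39, P-value 0.0183). Of the 8 members called lower inside a host, 0 had a called host, where 5.95% of all clusters were called. Among hosts of several members, Rpsa, another ribosomal protein gene, held Gm26448, at 7.90 and 8.10 in wild type and 8.77 and 8.30 in knockout (0.54, P-value 0.0264 in limma). It also held LOC115485682, at 7.15 and 7.49 against 8.01 and 7.4, where the groups overlapped. Gm25129 within the non-coding snoRNA host gene Snhg11 read 12.40 and 12.23 against 12.82 and 12.56 (0.38, P-value 0.0342), and the host changed by -0.14.

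**Figure D4:**
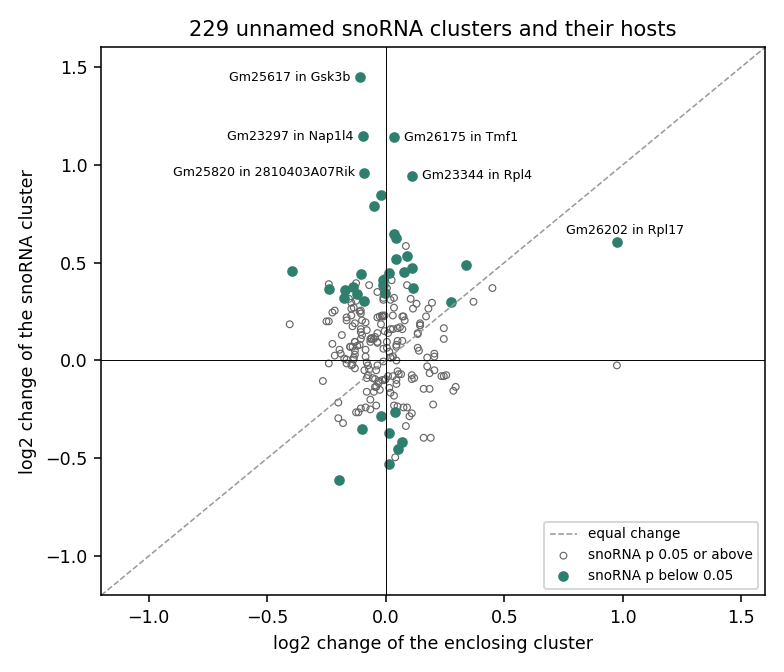
Log2 change of each of 229 unnamed snoRNA clusters (y axis) against that of the symbol-bearing cluster enclosing it on the same strand (x axis), filled where the snoRNA passed an unadjusted limma P-value of 0.05. Most filled points lie above 0 on the y axis and near 0 on the x axis, with Gm26202 in Rpl17 on the right. The dashed line marks equal change.

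The X chromosome held the largest number of higher calls, 25 of 88 members (28.4%), where 3.64% of all clusters were called higher, and 19 of these belonged to a single repeat. Here 22 type 3 members of 89 to 90 bases lay on the minus strand within 2.29 Mb (chrX:147747697-150034233), with starts 43.2 to 203 kb apart. This set was picked out by position and span after its values were seen and is given as a description. It is called a repeat here although the sequences of its clusters were not compared. The 22 clusters held only 6 different sets of values, so most copies were not measured separately. The commonest set, shared by 12 clusters, was 5.64 and 5.82 in wild type and 6.28 and 6.0 in knockout, a change of 0.41. A further 4 clusters shared 5.71 and 5.74 against 6.35 and 6.06, a change of 0.48. Knockout values exceeded wild-type values without overlap in all 22. The remaining X-linked members had 6 higher calls among 66 (9.09%). With shared values counted once over the whole set, 112 of 1117 distinct members were called higher.

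**Figure D5:**
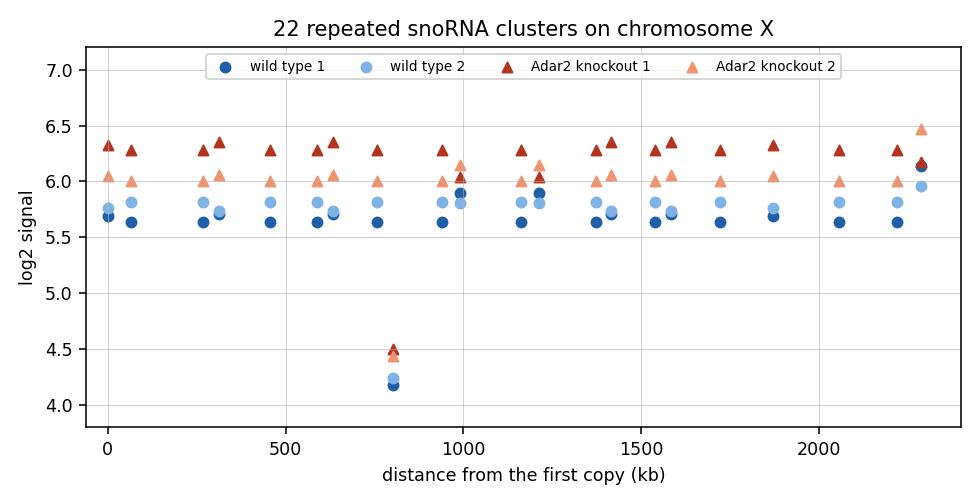
Log2 signals of the 22 repeated snoRNA clusters on chromosome X against the distance of each from the first copy in kb, with blue circles for the 2 wild-type arrays and red triangles for the 2 knockout arrays. Most copies show the same 4 values, and both knockout points lie above both wild-type points at every copy.

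Several members of known identity overlapped between the genotypes. The C/D box member cluster 17344124 (chr17:34952240-34952309, minus strand) read 11.97 and 12.46 in wild type and 12.32 and 12.22 in knockout, overlapping groups with a change of 0.06 (P-value 0.768 in limma). The member that overlaps Snord100, a C/D box snoRNA within the ribosomal protein gene Rps12, read 11.97 and 12.59 against 12.56 and 12.33. The member that overlaps the scaRNA Scarna9 read 7.38 and 8.04 against 8.03 and 8.01. In all 3, wild type 1 held the lowest value and wild type 2 lay above both knockout arrays. The member that overlaps Snord98, within Ccar1, read 5.2 and 5.17 against 5.14 and 5.73, again with overlap. The member that overlaps Snord59a read 5.8 and 5.53 against 5.86 and 5.92, higher in both knockout arrays by 0.23 (P-value 0.135). Gm22574, described as snoRNA Z39 and lying within Cox7c, a gene of the respiratory chain, read 3.71 and 3.77 against 4.15 and 4.37, at background throughout (0.52, P-value 0.00554).

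The 5 members with the widest gap between arrays of a genotype all owed it to the wild type, and in 4 of them wild type 1 was the lower. Gm26287, within Nop58, a core protein gene of C/D box particles, read 4.55 and 6.22 in wild type and 5.78 and 5.19 in knockout. Gm23598 read 6.91 and 8.46 against 7.85 and 7.86, and Gm25989 read 8.74 and 10.11 against 9.82 and 9.80. In each, the knockout arrays lay between the wild-type arrays. Gm23201, described as snoRNA D12, read 4.0 and 5.5 against 4.96 and 4.07, and cluster 17221434 was the exception in direction, with 5.52 and 4.16 against 4.73 and 4.87. None of the 5 had a limma P-value under 0.391.

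Clusters named Snora, Snord or Scarna by symbol, outside the left-out stretches, gave the nearest comparison, beside 3.64% higher and 2.31% lower calls over all clusters. Of the 36 Snora clusters 9 (25%) were called higher and 1 (2.78%) lower, with a median change of 0.29 that was 0.17 without wild type 1 and 0.53 without wild type 2. Of the 64 Snord clusters 6 were called higher and 1 lower, with a median change of 0.15 that turned to -0.03 when wild type 1 was left out and was 0.30 without wild type 2 and 0.0075 without knockout 1. Of the 9 Scarna clusters 4 were called higher and 0 lower, with a median change of 0.42. The difference between these groups and the unnamed members was not tested.

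Clusters bearing the symbols of proteins that bind or assemble snoRNAs numbered 24, for 21 of 23 listed genes. In limma, 0 were called higher, where 3.64% of all clusters were, and 4 lower, where 2.31% were, and the median change was -0.08. Naf1, an assembly factor of H/ACA particles, read 7.55 and 7.59 in wild type and 7.15 and 7.21 in knockout (-0.39, SE 0.10, unadjusted limma P-value 0.00973). Shq1, a dyskerin chaperone, changed by -0.36 (P-value 0.0259) and Ruvbl1, an ATPase of the C/D assembly complex, by -0.32 (P-value 0.0421), both without overlap. The cluster that the file names Nop56, after a core protein of C/D box particles, fell by 0.65 on the log2 scale (4.64 and 4.58 against 4.14 and 3.79, P-value 0.00473), but it spans only 70 bases and lay at or near background. The 4902-base cluster of Nop56 read 8.94 and 8.93 against 8.95 and 8.97, and another of 133 bases changed by 0.17 (limma P-value 0.553). Both short clusters lie within the span of the 4902-base one and are counted in the 24. Whether they read the protein transcript was not tested. Adjusted values of the 4 lower calls, the 70-base cluster included, were 0.834.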

How the data were processed

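Total RNA was labelled with the Ambion WT Expression Kit and hybridised to Affymetrix whole-transcript arrays at a core facility. The authors deposited 1 table with a normalized log2 signal per transcript cluster and array; the submitters' processing notes name Affymetrix Expression Console and RMA. Its columns of group averages, log ratio, fold change and P-value were not used. The arrays' number, 2 per genotype, limits the precision. Groups and replicate numbers came from the labels.

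limma 3.58.1 in R 4.3.3 (lmFit, eBayes) was fitted to the deposited log2 signals of all 33793 clusters with genotype as the only term, and P-values were adjusted by Benjamini-Hochberg over all of them. Changes are knockout minus wild type, tests are two-sided, and "called" means an unadjusted P-value below 0.05. The script was tested on simulated data. Hosts were taken from positions in the same table, names and sequences from RefSeq. Tables were handled in Python 3.11.15 with pandas 2.3.3.

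Named members were the 12 largest rises and 6 largest falls among those called without overlap, and the 5 with the widest gap within a genotype; Snora, Snord, Scarna, snoRNP and marker lists were compared. Other members (known identity, shared hosts, the X-linked repeat, sequence examples) were singled out after their values were seen. Blood markers (mean 7.00 to 8.01), astrocyte (9.84 to 9.92), oligodendrocyte (11.08 to 11.26) and choroid plexus markers (9.40 to 9.86) were also read. The members and lists were chosen with earlier results of these data known. Alternatives were other normalizations, level and cross-hybridization filters, other variance estimates, a replicate block, shared values counted once and each array left out.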

Additional observations from a re-analysis of the deposited data

How the results depend on the processing

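In place of 127 members called higher (11.1%, against 3.64% of all clusters), there were 35 when clusters were kept only above the median level (17.1% of 205 members, against 2.37%), 48 without clusters that can cross-hybridize (8.42% of 570, against 3.49%) and 40 with a pooled-variance test (3.50%, against 2.87%). Leaving out 1 array gave 68 to 107 (5.94% to 9.35%, against 2.14% to 3.12%), with 68 without wild type 1 and 78 without knockout 1. The 25 lower calls became 2 (0.976%, against 3.49%), 16 (2.81%, against 2.60%) and 11 (0.962%, against 2.75%) under the same 3 settings, 8 when clusters were kept only above the highest Y-linked value (1.59% of 504, against 2.60%, a filter chosen after seeing the data), and 17 to 28 without 1 array (1.49% to 2.45%, against 1.47% to 2.21%). Centring each array on its median gave 93 higher (8.13%, against 2.37%) and 33 lower (2.88%, against 3.64%). The 4 members past 2-fold (0.35%, against 0.0681% of all clusters) became 1 without cross-hybridizing clusters (0.175%, against 0.0381%), 1 with pooled variance (0.0874%, against 0.0207%), 2 without knockout 1 (0.175%, against 0.16%), 9 without knockout 2 (0.787%, against 0.281%) and 26 at 1.5-fold (2.27%, against 0.657%). No alternative gave a member past an adjusted P-value of 0.05.

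The 309 members higher without overlap became 61 above the median level (29.8%, against 12.4% of all clusters), 127 without cross-hybridizing clusters (22.3%, against 16.9%) and 166 above the Y-linked edge (32.9%, against 16.6%). Without 1 array, where fewer values must be separate, they were 498 to 528 (43.5% to 46.2%, against 32.1% to 34.9%). The 92 lower became 5 (2.44%, against 21.9%), 53 (9.30%, against 17.5%) and 20 (3.97%, against 18.0%), and 234 to 263 without 1 array (20.5% to 23.0%, against 31.1% to 33.5%). The median change of 0.075 became 0.035 after median centring, 0.17 above the median level and 0.155 above the Y-linked edge, and 0.0675 to 0.0875 without 1 array. The Snord median ran from -0.0275, without wild type 1, to 0.3025. Filters and left-out arrays reduce the clusters or arrays tested; other causes of the shifts were not tested. The 12 named rises and 6 named falls kept their direction in all 231 values compared. They were chosen without overlap between groups, so leaving out an array could not turn it. Filters and other variance estimates leave the change itself as it was. An unadjusted P-value below 0.05 was lost by 14 with the pooled-variance test and by 2 with the replicate block. Calls were also lost without single arrays.

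Deviations of same-numbered arrays correlated at 0.0516 over all clusters and 0.0392 over members. With 2 arrays per genotype, these values cannot exclude that animals were paired. With a replicate block, 98 members were called higher (8.57%, against 3.08% of all clusters), 75 of them among the 127, 17 lower (1.49%, against 1.93%), 3 past 2-fold (0.262%, against 0.0681%) and 0 after adjustment. Adarb1 changed by -1.42 with the block and stayed past an unadjusted 0.05 under every alternative.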
